A study of Mus musculus with 4 samples.

Results

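Transcripts of 27 genes of glycolysis and of the response to low oxygen were followed through leukocytes of mouse mammary tumours treated with a control plasmid or with one encoding interleukin 12 (IL-12). The genes were taken from a list of 30 by name, and a gene entered if its symbol heads a column in both expression tables, which hold 11407 genes. The 27 comprise 14 glycolytic enzymes, 3 regulators of the hypoxia response and 10 hypoxia targets; the glucose transporters Slc2a1 and Slc2a3 and the lactate transporter Slc16a3 are not analysed here.

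Per the labels, each plasmid was injected into the tumour and followed by electroporation, and live cells carrying the leukocyte marker CD45 were sorted afterwards. Each treatment has 1 library of transcript 5′ ends from the pooled cells of 3 mice, so there is no replicate, no test was made, and differences between mice cannot be seen. The labels disagree on the tumour: triple-negative tumours are named in the title and design text, 4T1, a mouse mammary carcinoma line, in the tables' library names, while the growth protocol has HER2 induced in the mammary tissue of mice aged 1 month. Both groups share tumour, injection, electroporation and sort; the sources used here give no strain, no promoter for HER2 and no time from plasmid to sort. There were 4232 control cells, with a median of 3021 unique molecular identifiers (UMIs, each a counted molecule) per cell, and 12979 IL-12 cells, with a median of 3418. The libraries had 87 cell barcodes in common.

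Glycolysis splits glucose into pyruvate through a chain of cytosolic enzymes, and lactate dehydrogenase A turns pyruvate into lactate. When oxygen is scarce, the prolyl hydroxylases of the EGLN family no longer mark the HIF alpha subunits for degradation, and HIF dimers raise transcription of most glycolytic genes and of genes such as Vegfa and Bnip3 by binding short DNA motifs. Tumour neutrophils and macrophages often lie in poorly perfused regions, and activated T cells raise glycolysis even with oxygen present, so these genes are read in tumours both as a sign of hypoxia and as a sign of activation. HIF1A protein is set largely by its degradation, which transcript counts do not show.

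The core of the HIF binding motif, ACGTG or GCGTG, was searched on both strands in the 250 bases before the RefSeq transcript starts of the members (build GRCm38.p6). Either motif occurred in 77.1% of the 35 member windows, against 38.6% of all 32851 windows of the same length; ACGTG alone was in 45.7% against 16.6%, and GCGTG alone in 51.4% against 28.2%. Base composition was not matched, and 22 of the 25 member genes with a window had a motif in at least 1 of theirs. Epas1 and Ndrg1 had no window. Some windows overlap an annotated exon, and genes with several starts have several windows. The 5 windows printed are those of the hexokinase pair Hk1 and Hk2, of Aldoa, the member with the highest ratio of IL-12 to control, of Vegfa, which after Hk2 had the lowest, and of Ldha, added after its matches were seen because it held the most ACGTG. They lie at chr6:82774455-82774704 (Hk2), chr10:62379909-62380158 (Hk1), chr7:126799255-126799504 (Aldoa), chr17:46032378-46032627 (Vegfa) and chr7:46845554-46845803 (Ldha), on the minus strand except Ldha. Each reads 5′ to 3′ on the gene's strand, ends at the base before the start, holds no annotated exon, and has motif letters in capitals; a match on the other strand reads CACGT or CACGC, and the palindrome CACGTG counts on both strands, with the matches overlapping.
Hk2: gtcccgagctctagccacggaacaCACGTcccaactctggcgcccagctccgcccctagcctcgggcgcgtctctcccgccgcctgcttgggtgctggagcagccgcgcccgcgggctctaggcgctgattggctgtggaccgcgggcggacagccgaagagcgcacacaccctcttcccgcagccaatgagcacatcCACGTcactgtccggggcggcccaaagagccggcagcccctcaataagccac
Hk1, upstream start: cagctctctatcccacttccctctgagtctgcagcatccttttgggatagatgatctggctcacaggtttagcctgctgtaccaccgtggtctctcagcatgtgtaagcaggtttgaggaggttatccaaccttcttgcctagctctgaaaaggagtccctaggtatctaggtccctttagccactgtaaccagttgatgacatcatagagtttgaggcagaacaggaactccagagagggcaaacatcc
Aldoa: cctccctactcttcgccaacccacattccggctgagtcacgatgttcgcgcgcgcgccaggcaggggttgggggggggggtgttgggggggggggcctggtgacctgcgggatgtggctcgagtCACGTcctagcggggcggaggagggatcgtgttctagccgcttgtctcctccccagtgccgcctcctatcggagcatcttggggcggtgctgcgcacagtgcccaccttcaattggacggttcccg
Vegfa, upstream start: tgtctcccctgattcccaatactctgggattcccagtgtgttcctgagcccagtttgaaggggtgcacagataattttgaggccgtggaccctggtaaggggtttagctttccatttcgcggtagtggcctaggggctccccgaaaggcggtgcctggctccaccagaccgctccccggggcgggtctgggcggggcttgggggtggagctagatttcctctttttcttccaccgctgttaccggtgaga
Ldha: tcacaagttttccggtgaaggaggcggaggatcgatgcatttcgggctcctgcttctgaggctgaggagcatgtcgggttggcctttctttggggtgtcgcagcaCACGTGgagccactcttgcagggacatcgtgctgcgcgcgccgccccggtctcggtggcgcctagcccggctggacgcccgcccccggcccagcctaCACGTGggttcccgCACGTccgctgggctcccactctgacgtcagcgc
Hk2 had ACGTG matches beginning 226 and 52 bases before the start, and Aldoa 1 match at 126. Ldha had 5 matches, of which 4 come from a pair of palindromes. The upstream windows of Hk1 and Vegfa held neither motif. Hk1's other window held 3 GCGTG and Vegfa's other window 1 of each. Both of these other windows lie within the annotated gene, with 186 (Hk1) and 218 (Vegfa) of their 250 bases in annotated exons. Both count among the member windows with a motif. Hk2, Aldoa and Ldha all carry the motif. Over all sorted cells Hk2 stood lower in the IL-12 library than in control, and Aldoa and Ldha above control. A link between motif and ratio was not tested.

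Levels are in CPM, the summed UMIs of a gene over the cells of a population, scaled to 1000000 UMIs of those cells. Brackets give exact 95% intervals from counting error only. Genes are called measured where the libraries held 50 or more UMIs in sum and 5% or more of one library's cells had a UMI, and higher or lower where the ratio reached 1.5-fold. Log2 ratios are IL-12 over control with 1 CPM added to both.

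In both libraries the authors' cluster 2, which they class as neutrophils, had the largest share of its UMIs in glycolytic enzymes and hypoxia targets. This ranks shares, not transcripts per cell. Cluster 2 held 6549 enzyme UMIs in 427 control cells and 33444 in 1914 IL-12 cells. The deeper cells of macrophage cluster 6 held more per cell, with 14320 in 368 and 53500 in 1174. Of the 27 members, 21 had their highest level in cluster 2 among the 11 control clusters with at least 50 cells, where 10.4% of all measured genes did so; in the IL-12 library it was 15 of 27 among 13 clusters, against 9.80% of all measured genes. The clusters were drawn from these expression values, so this is a description. The 14 enzymes together stood at 8630 CPM in control cluster 2, and between 1720 CPM (cluster 13, mostly B cells) and 4910 CPM (neutrophil cluster 7) in the other 10. In the IL-12 library they stood at 7555 CPM in cluster 2 and between 2574 and 5773 CPM elsewhere. The 10 hypoxia targets stood at 5025 CPM in control and 4027 CPM in IL-12 cluster 2, against at most 2436 and 2612 CPM in any other cluster of the same library.

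**Figure D1:**
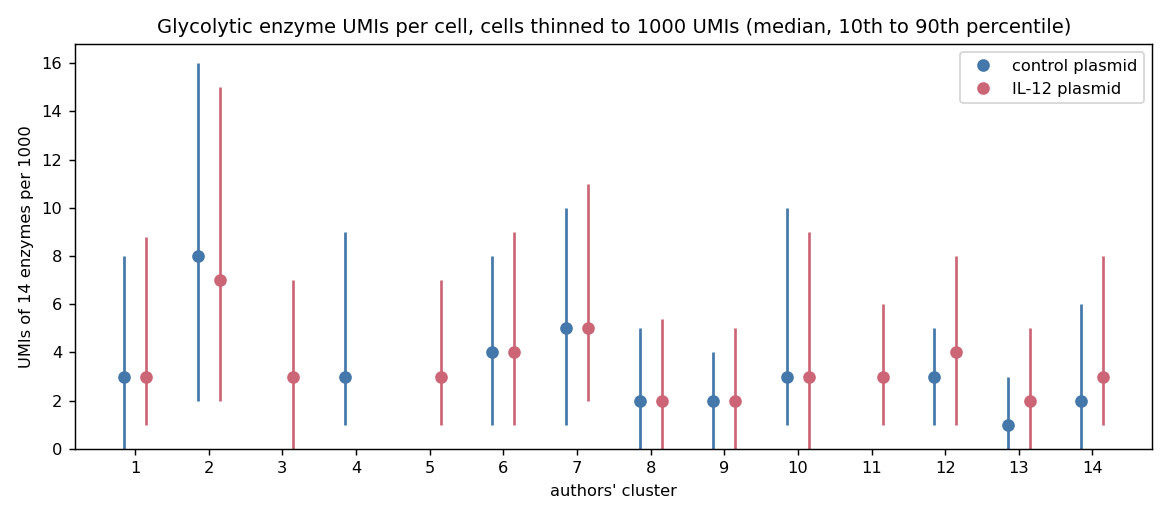
UMIs of the 14 glycolytic enzymes per cell after thinning each cell to 1000 UMIs (vertical axis), by the authors' cluster (horizontal axis); dots are medians and lines run from the 10th to the 90th percentile of cells, for clusters with at least 50 such cells in a library. Cluster 2 has medians of 8 in control and 7 in IL-12, above every other cluster.

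The order was the same with each cell thinned to 1000 UMIs: the median cell of cluster 2 had 8 enzyme UMIs in control and 7 in IL-12, against 1 to 5 in the other clusters of either library. Its cells are shallow, with a median of 1643 UMIs (control) and 2192 UMIs (IL-12); the thinning left out 59 control and 108 IL-12 cells below 1000 UMIs. The summed level of 6 neutrophil markers was 66278 CPM in control cluster 2, below the 81491 to 269134 CPM of the other control neutrophil clusters (1, 4, 7 and 14). In IL-12 cluster 2 it was 56705 CPM, below the 79039 to 304306 CPM of IL-12 clusters 1, 3, 7 and 14. Macrophage and monocyte markers summed to 793 and 853 CPM in cluster 2, and T cell, B cell, dendritic and tumour epithelial markers to at most 108 CPM each in either library. Tpi1, triosephosphate isomerase, stood at 1120 CPM in control cluster 2 and at 550 CPM in the next cluster, and Ldha at 1654 and 785 CPM. Ero1l, an oxidase of protein folding, stood at 1305 against 734 CPM, Bnip3, a mitophagy receptor, at 778 against 409, and Higd1a, an inner mitochondrial membrane protein, at 511 against 208. Adm, the gene of the vasodilator adrenomedullin, was scarce throughout: it had 44 UMIs (58.0 CPM) in control cluster 2 and 129 UMIs (29.1 CPM) in IL-12, with at most 13.03 and 15.4 CPM in any other cluster, but a UMI in only 4.92% and 3.71% of cells, and it counted as measured in none of the populations compared.

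The 6 members that did not peak in control cluster 2 peaked in clusters 4, 6, 8 and 10. Vegfa, the main angiogenic factor, was highest in macrophage cluster 6 in both libraries, at 566 CPM (541 to 592) in control and 225 CPM in IL-12. Epas1, which encodes HIF-2 alpha, was found in T cells: it stood at 117 CPM in control cluster 8 (CD8 T cells), 81.2 CPM in cluster 9 (CD4 T cells) and 42.0 CPM in cluster 12, and at no more than 9.66 CPM in the other control clusters. Hif1a stood at 1125 CPM in neutrophil cluster 4 and 1028 CPM in cluster 8, and at 534 CPM in cluster 2, below the median control cluster at 643 CPM. So the cluster with the largest share of target transcripts was not one with a large share of Hif1a transcript. Hk1, the constitutive hexokinase, peaked in cluster 4 (99.4 CPM) and varied only down to 36.6 CPM in cluster 13, while Hk2, the inducible isozyme, ran from 23.1 CPM in cluster 8 to 633 CPM in cluster 2. Pgk1 was highest in macrophage cluster 10 and Ddit4, an inhibitor of mTORC1, in cluster 8. Mif, a secreted cytokine, stood at 1251 CPM in cluster 2 and 1205 CPM in cluster 10 in control, and in IL-12 at 1067 and 1397 CPM. B-cell cluster 13 was lowest of the 11 control clusters for Hk1, Gpi1, Aldoa, Gapdh, Pgk1, Eno1, Ldha, Hif1a and Ero1l.

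**Figure D2:**
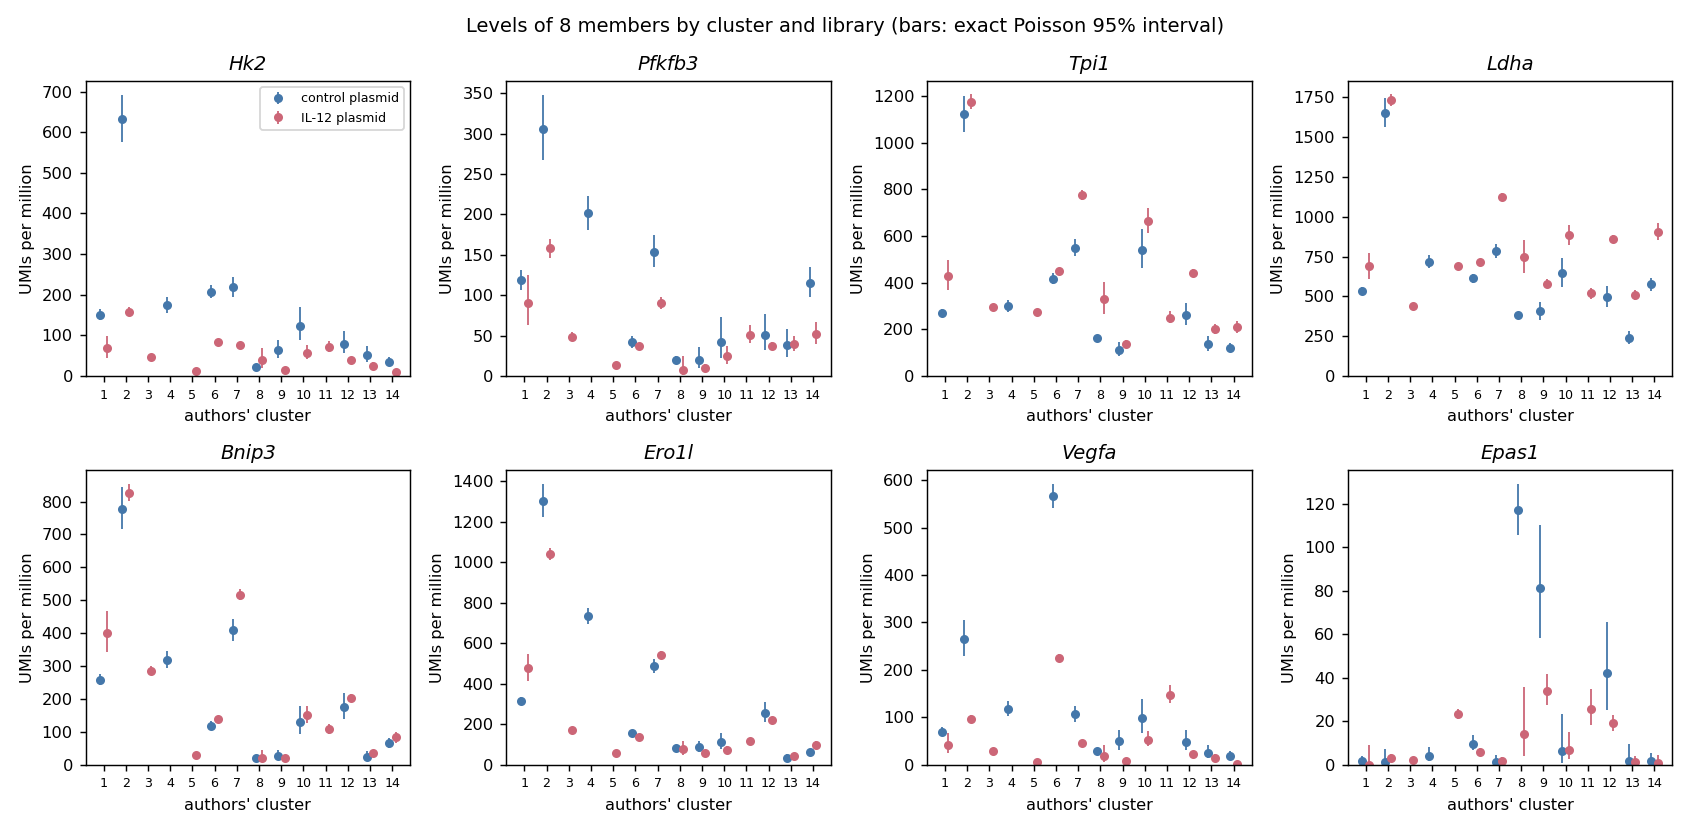
Levels in CPM (vertical axes) of 8 members by the authors' cluster (horizontal axes) and library, with exact Poisson 95% intervals; clusters under 50 cells in a library are left out. Hk2, Pfkfb3, Tpi1, Ldha, Bnip3 and Ero1l peak in cluster 2, Vegfa in cluster 6 and, in control, Epas1 in cluster 8, and the control points of Hk2 and Vegfa lie above the IL-12 points except for Hk2 in cluster 8.

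Over all sorted cells the IL-12 library did not move the pathway as a block. Of 24 measured members, 1 was higher and 9 were lower, against 13.7% higher and 23.2% lower of the 5366 genes measured; the members' median log2 ratio was -0.34 and that of all measured genes -0.11. The 14 enzymes together were 1.17-fold (1.16 to 1.18) above control, at 3767 and 4424 CPM, and the 10 targets close to level, at 1736 and 1666 CPM. Without Mif, the most abundant target, they stood farther apart, at 1087 and 964 CPM. Single enzymes lay on either side of control. Hk2 stood at 149 CPM in control and 52.3 CPM in IL-12, 2.85-fold lower (2.70 to 3.00). Pfkp, a phosphofructokinase, was 1.76-fold lower (211 and 120 CPM), and Pfkfb3, which makes that enzyme's allosteric activator, 2.07-fold lower (94.9 and 45.9 CPM). Aldoa, aldolase A, stood at 790 and 1289 CPM, 1.63-fold higher (1.60 to 1.66), and was the 1 member that was higher. Tpi1, Pkm (pyruvate kinase) and Ldha were 1.35-fold, 1.36-fold and 1.34-fold above control, short of the threshold. Hk1, Gpi1, Pfkl and Pgam1 lay within 1.5-fold, at log2 ratios of -0.55, -0.02, -0.51 and 0.28. Against genes of like length, Hk2 and Pfkfb3 were at -1.10 and -0.64, past the threshold, and Pfkp, Aldoa, Tpi1, Pkm and Ldha at -0.41, 0.36, 0.088, 0.40 and 0.074, short of it. Pgk1 (127 and 64.4 CPM) and Eno1 (189 and 94.5 CPM) were lower in their own columns, and are taken up further on with their near-identical copies. Centred on the median of all measured genes, 2 members were higher and 8 lower, beside 18.1% and 18.0% of all genes so centred.

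All 3 regulators were lower, Hif1a just past the threshold. Hif1a stood at 783 CPM in control and 514 CPM in IL-12, 1.52-fold lower (1.49 to 1.56); centred on the median of all measured genes its log2 ratio of -0.61 came to -0.50, and against genes of like length to -0.21, both short of the threshold. Epas1 stood at 29.9 and 12.6 CPM, 2.37-fold lower (2.12 to 2.66). Egln3, an oxygen-sensing hydroxylase that HIF itself induces, stood at 90.7 and 48.6 CPM, 1.87-fold lower (1.75 to 1.98). Of the 10 targets only Vegfa passed the threshold, at 167 and 66.2 CPM, 2.53-fold lower (2.41 to 2.65). The other 7 measured targets lay within 1.5-fold, from Ero1l at a log2 ratio of -0.39 to Higd1a at 0.54. Gapdh, Adm and Pdk1, a kinase that blocks pyruvate entry into mitochondria, were not measured in all sorted cells. Gapdh, one of the most abundant transcripts of most cells, was listed at only 9.82 and 11.01 CPM; 23.8% of its 60-base stretches recur in 164 other annotated genes, so its column says little about the enzyme. The mix of cells differed between libraries, neutrophils being 64.3% of control and 45.5% of IL-12 cells, and neutrophil markers summed to 66022 and 36241 CPM. With IL-12 cells weighted to the control class shares, Hk2 was at -1.25, Vegfa at -1.19, Epas1 at -1.66, Hif1a at -0.72 and Aldoa at 0.70 on the log2 scale, while Egln3 came to -0.52, short of the threshold.

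**Figure D3:**
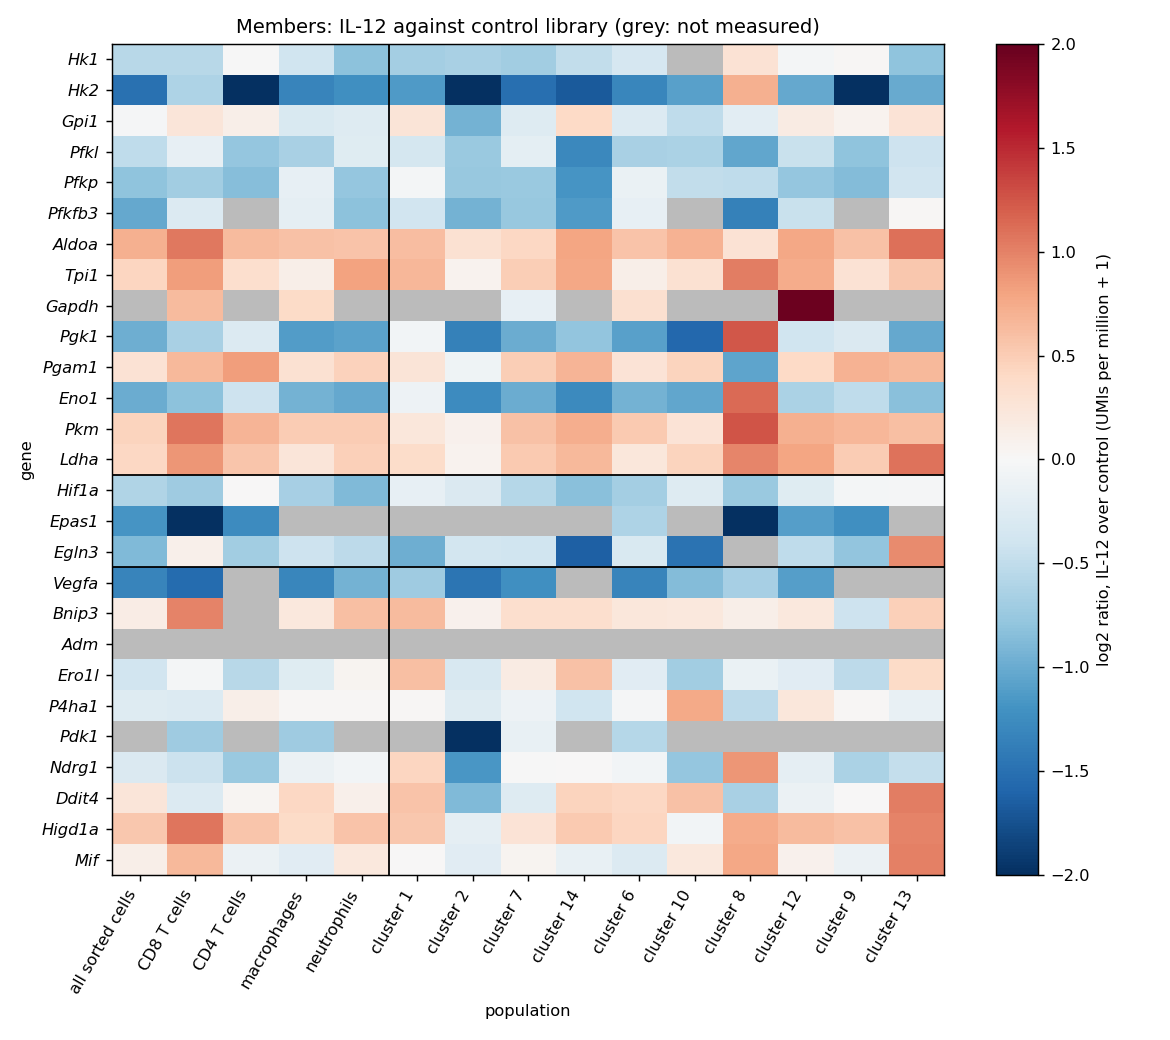
Log2 ratio of IL-12 over control (colour, cut at -2 and 2) for the 27 members (rows; enzymes, regulators and targets separated by lines) in all sorted cells, 4 classes and 10 clusters (columns); grey cells were not measured. Rows of Aldoa, Tpi1, Pkm and Ldha are red and those of Pfkl, Pfkp and Hif1a blue in all 10 clusters, and Hk2 is blue in 9.

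Macrophages had 574 control and 1702 IL-12 cells. Of 25 measured members 0 were higher and 7 lower, beside 10.3% and 19.5% of the 6328 genes measured, with medians of -0.17 and -0.11. Centred on that median, 2 were higher and 5 lower, beside 13.5% and 14.2% of all genes so centred. Vegfa stood at 527 and 212 CPM, 2.48-fold lower (2.34 to 2.64), and Hk2 at 204 and 81.5 CPM, 2.51-fold lower (2.28 to 2.76). Pfkl, Pgk1, Eno1, Hif1a and Pdk1 were the other 5, and Pdk1 rests on 42 and 80 UMIs. Aldoa (910 and 1360 CPM) and Pkm (909 and 1294 CPM) were 1.49-fold and 1.42-fold above control. The share of cells with a UMI was lower too. With cells thinned to 1000 UMIs, which left out 84 control and 150 IL-12 cells, a Vegfa UMI was seen in 29.2% of control and 16.6% of IL-12 macrophages (57.5% and 49.1% unthinned), and an Hk2 UMI in 19.2% and 7.54% (51.0% and 32.1% unthinned). At so few UMIs per cell the thinned share follows the level, so it cannot show whether fewer cells express the gene. Vegfa UMIs in thinned B-cell cluster 13 were in 2.11% and 0.752% of cells, at median depths of 4342 and 6307 UMIs against 5515 and 7211 in macrophages. Macrophage and monocyte markers summed to 11399 and 8150 CPM in the class; their part in the ratios was not tested.

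Neutrophils had 2721 control and 5908 IL-12 cells. Of 23 measured members 2 were higher and 8 lower, beside 10.9% and 39.5% of the 3351 genes measured, with medians of -0.06 for the members and -0.39 for all. Centred on the median of all measured genes, 8 were higher and 3 lower, beside 21.6% and 19.2% of all genes so centred. Tpi1 stood at 379 and 661 CPM, 1.74-fold higher (1.68 to 1.81), and Bnip3 at 317 and 483 CPM, 1.52-fold higher (1.46 to 1.59). Hif1a stood at 712 and 386 CPM, 1.84-fold lower (1.78 to 1.91), and Hk2 at 192 and 81.2 CPM, 2.36-fold lower (2.20 to 2.53). Hk1, Pfkp, Pfkfb3, Pgk1, Eno1 and Vegfa were the other 6, Vegfa at 95.03 and 48.8 CPM. The class is made of different clusters in the libraries: control neutrophils were mostly of clusters 1, 4 and 2 and IL-12 neutrophils of clusters 3, 2 and 7. With IL-12 cells weighted to the control cluster shares, Tpi1 and Bnip3 both came to a log2 ratio of 0.51, so 0 members were higher, and 5 were lower, Hif1a being just short at -0.56 and Hk2 at -0.87. Few IL-12 neutrophils lay in clusters that were large in control: 160 beside 1260 in cluster 1, and 16 beside 550 in cluster 4. In cluster 4 neutrophil markers summed to 81491 CPM in control and 21773 CPM in IL-12, and macrophage and monocyte markers to 825 and 9450 CPM. The part of these cells in the weighted values was not tested. Cluster 2 on its own, with 427 and 1914 cells, showed the steepest Hk2 difference of the neutrophil clusters, 633 and 158 CPM, 3.99-fold lower, with Gpi1 1.94-fold, Pfkfb3 1.94-fold, Vegfa 2.77-fold, Ndrg1 2.24-fold and Ddit4 1.85-fold lower, while Tpi1, Pkm and Ldha were 1.05-fold, 1.06-fold and 1.05-fold above control there. In that cluster 0 of 24 measured members were higher and 12 lower, beside 8.53% and 38.8% of the 2660 genes measured.

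CD8 T cells had 649 control and 3264 IL-12 cells, and were the class with the most members higher. Of 26 measured, 9 were higher and 8 lower, beside 11.6% and 36.5% of the 6855 genes measured; the members' median was -0.22 and that of all genes -0.31. The 14 enzymes together stood at 2516 and 4013 CPM, 1.60-fold higher (1.56 to 1.63). Aldoa stood at 668 and 1392 CPM, 2.08-fold higher (2.004 to 2.17), Pkm at 360 and 753 CPM, 2.09-fold (1.98 to 2.21), and Ldha at 397 and 735 CPM, 1.85-fold (1.76 to 1.95). Tpi1, Gapdh, Pgam1, Bnip3, Higd1a and Mif were also higher, Higd1a 2.11-fold (1.88 to 2.38). Of the 9, Pgam1, Mif, Gapdh, Pkm and Bnip3 share 35.7%, 31.8%, 23.8%, 22.3% and 14.4% of their 60-base stretches with other genes, so their columns may miss reads; without members that share over 10%, 4 of 19 were higher. Epas1 had the largest difference of any member in this class, at 109 CPM in control and 22.0 CPM in IL-12, 4.93-fold lower (4.33 to 5.62); with cells thinned to 1000 UMIs it was seen in 8.32% of control and 1.99% of IL-12 cells (27.0% and 11.7% unthinned). The thinned share of neutrophils, where Epas1 was not measured, came to 0.0766% and 0.209%, with median depths of 2524 and 2553 UMIs. Vegfa was 3.11-fold lower (2.47 to 3.90) at 30.5 and 9.80 CPM, a low level that thinned to 1.85% and 0.827% of cells. Hif1a stood at 970 and 594 CPM, 1.63-fold lower (1.57 to 1.69), and Hk2, Pfkp, Pgk1, Eno1 and Pdk1 were the other 5. Centred on the median of all genes, 9 were higher and 2 lower, beside 22.7% and 21.2% of all genes so centred, the 2 being Epas1 and Vegfa.

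The CD8 class too is drawn from different clusters: 572 of the 649 control cells lie in cluster 8, and 2488 of the 3264 IL-12 cells in cluster 5 and 704 in cluster 12, which also carried neutrophil markers (49433 CPM in control, 37682 CPM in IL-12). Neutrophil markers of the whole class summed to 6907 and 10064 CPM. Without clusters 11 and 12, Aldoa was at 1.10, Pkm at 1.04, Hif1a at -0.72, Epas1 at -2.30, Vegfa at -2.17 and Hk2 at -0.90 on the log2 scale, so Aldoa, Hif1a, Epas1, Vegfa and Hk2 were farther from 0 there than in the whole class. Within cluster 8, present in both libraries but with only 67 IL-12 cells, Aldoa, Tpi1, Pkm and Ldha were above and Epas1 (117 and 13.9 CPM), Hif1a (1028 and 613 CPM) below control, as in the class. Hk2 (0.70), Pgk1 (1.24) and Eno1 (1.13) were above control there on the log2 scale and Pgam1 (-1.05) below, opposite to the class, with 11, 57, 81 and 7 IL-12 UMIs. The IL-12 level of Epas1 in cluster 8, 13.9 CPM beside 24.4 CPM for Pgam1, rests on fewer UMIs still. Among IL-12 CD8 T cells of cluster 5, the authors' expanded clones (1821 cells) and other cells (418) had nearly equal enzyme levels, at 3942 and 3662 CPM, 1.08-fold (1.05 to 1.10). Egln3 stood at 3.74 CPM in expanded and 17.4 CPM in other cells, on 45 and 51 UMIs, and Hk2 at 8.98 and 13.6 CPM, 0.660-fold (0.455 to 0.973). Other members also had intervals without equality, short of the threshold. Epas1 (0.744-fold) and Ndrg1 (0.711-fold) were below equality. Bnip3 (1.33-fold), Hif1a (1.15-fold), Gpi1 (1.14-fold), Aldoa (1.11-fold) and Pkm (1.10-fold) were above it. In cluster 12, with 397 expanded and 151 other cells, Egln3 was at 0.961-fold (0.710 to 1.32), while Pfkfb3 (1.69-fold) and Ddit4 (1.67-fold) were higher and Epas1 (0.502-fold) lower in expanded cells. The remaining intervals without equality there were those of Aldoa (1.14-fold), Ldha (0.930-fold), Ero1l (0.835-fold), Ndrg1 (0.687-fold) and P4ha1 (0.671-fold). Adm was the last, with 14 UMIs in expanded and 0 in other cells. Control cluster 8 had 164 expanded and 233 other cells. There the members with intervals without equality were Epas1 (0.587-fold), Ero1l (0.579-fold) and Ldha (0.758-fold).

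CD4 T cells had 179 control and 998 IL-12 cells, so counting error is widest here. Of 21 measured members 3 were higher and 6 lower, beside 15.6% and 16.0% of the 4644 genes measured, with medians near 0 for both (-0.00023 and -0.02). Centring on the median left 3 and 6, beside 16.3% and 15% of all genes so centred. Aldoa, Pgam1 and Pkm were 1.56-fold (1.37 to 1.77), 1.81-fold (1.04 to 3.40) and 1.61-fold (1.35 to 1.94) higher. Hk2 was 4.83-fold lower (2.90 to 8.04) on 32 and 35 UMIs, and Epas1 2.44-fold lower (1.64 to 3.56) at 82.5 and 33.9 CPM. Pfkl, Pfkp, Egln3 and Ndrg1 were the other 4, and the interval of Egln3 spanned equality. Hif1a did not share the difference seen in the other classes, at 767 and 773 CPM, 1.01-fold (0.903 to 1.13); the difference between classes was not tested. In this class neutrophil markers summed to 2517 and 746 CPM, the 3 CD4 T cell markers to 250 and 304 CPM, the 2 CD8 markers, at 662 and 1019 CPM, to more than these, and NK cell markers to 137 and 131 CPM; the class is named as the authors name it.

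The libraries were also compared within clusters, whose makeup can differ between libraries too: T cell markers summed to 68.5 and 314 CPM in macrophage cluster 6, CD8 markers to 15.6 and 225 CPM in neutrophil cluster 1, and neutrophil markers to 3466 and 759 CPM in CD4 T cell cluster 9. Of the members, 19 were measured in each of the 10 clusters with at least 50 cells in both libraries. Aldoa, Tpi1, Pkm and Ldha were above control in all 10 clusters, and Pfkl, Pfkp and Hif1a below it in all 10; of 1273 genes measured in every cluster 7.23% were above in all 10 and 11.5% below in all 10. The clusters come from the same pair of libraries and are not replicates. Aldoa's log2 ratio ran from 0.28 in cluster 8 to 1.11 in cluster 13, and Hif1a's from -0.84 in cluster 14 to -0.03 in cluster 13. Vegfa was below control in all 10 clusters but measured in 7 of them. Hk2 was below control in 9, from -1.01 to -2.05, and above it in cluster 8, where the IL-12 library had 11 UMIs of it. Bnip3 was above control in 9 of 10, with cluster 9 at -0.41.

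Members were also counted within each cluster. Cluster 13, mostly B cells by the authors' classes, had 8 higher and 4 lower of 22 measured, beside 18.5% and 28.5% of all genes measured there. Its B-cell markers summed to 1383 and 1428 CPM, but mast cell markers to 69.8 CPM in control and 3668 CPM in IL-12, dendritic markers to 968 and 1438 CPM and tumour epithelial markers to 511 and 906 CPM; their part in the ratios was not tested. The CD8 T cell cluster 8 had 9 and 7 of 23, beside 12.8% and 23.9%. In cluster 12 it was 6 and 5 of 25, beside 16.9% and 28.3%, and in CD4 T cell cluster 9 it was 4 and 6 of 22, beside 15.3% and 16.4%. Macrophage cluster 6 had 0 higher and 7 lower of 26, beside 10.4% and 21.3%, and macrophage cluster 10 had 3 and 8 of 21, beside 23.1% and 13.6%. Of the neutrophil clusters, cluster 1 had 4 and 4 of 23, beside 15.1% and 21.2%, cluster 7 had 1 and 7 of 25, beside 8.96% and 34.1%, and cluster 14 had 5 and 8 of 22, beside 13.9% and 30.8%. The members' median log2 ratio was highest in cluster 13, at 0.33, where that of all genes was -0.13, and lowest in cluster 2, at -0.51, where that of all genes was -0.39.

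Pgk1 (phosphoglycerate kinase) and Eno1 (enolase) have near-identical copies with columns of their own, so their columns alone do not give the gene's level. Eno1 shares 24.7% of its 60-base stretches with other annotated genes and Pgk1 53.4%, among them Eno1b and Pgk1-rs7. As Eno1 went from 189 to 94.5 CPM in all sorted cells, Eno1b went from 266 in control to 391 in IL-12, and their sum from 456 to 485, 1.07-fold (1.04 to 1.09). Pgk1 and Pgk1-rs7 summed to 350 and 405 CPM, 1.16-fold (1.13 to 1.19), where Pgk1 alone was 1.98-fold lower. Summed with its copy, Eno1 was 1.43-fold and Pgk1 1.52-fold above control in CD8 T cells. In macrophages and neutrophils the sums lay within 1.08-fold of control. Once the copies are counted, the 2 genes therefore do not pass the threshold for lower in all sorted cells or in these classes. In cluster 2 both sums were somewhat below control, Eno1 at 0.897-fold (0.823 to 0.980) and Pgk1 at 0.897-fold (0.796 to 1.01). With all copies added, the 14 enzymes were 1.21-fold (1.20 to 1.22) above control in all sorted cells.

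**Figure D4:**
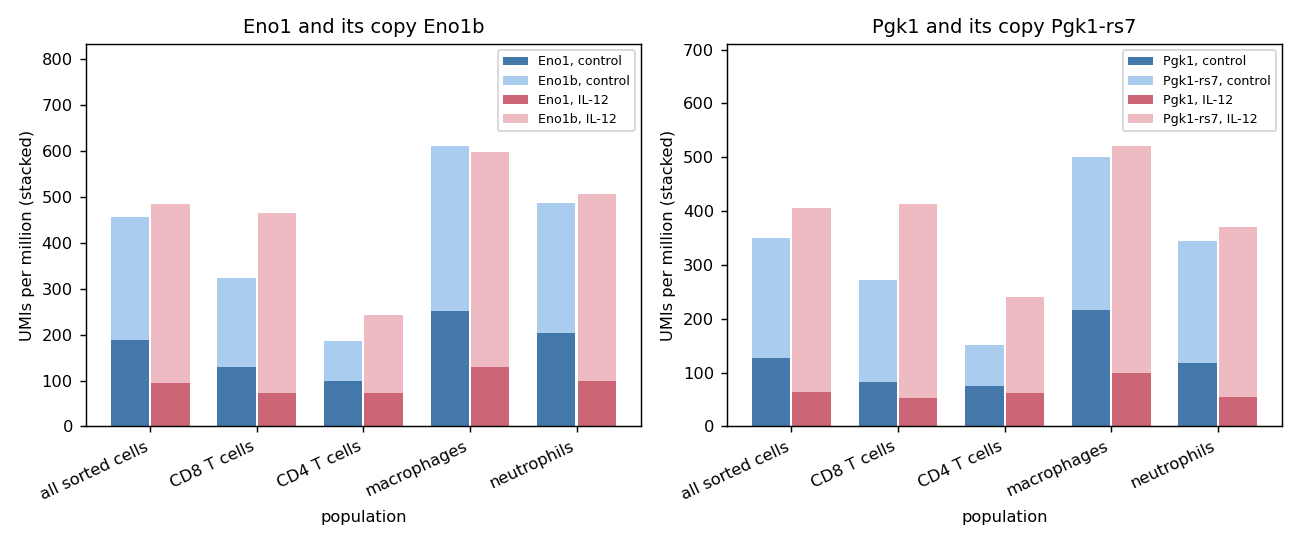
Stacked levels in CPM (vertical axes) of Eno1 with Eno1b and of Pgk1 with Pgk1-rs7, by population (horizontal axes) and library. The dark parts (Eno1, Pgk1) are smaller in IL-12 and the light parts (copies) larger, so that the whole bars differ less than their dark parts in all sorted cells, macrophages and neutrophils.

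The split of UMIs between gene and copy differed between the libraries and between clusters. Of Eno1 and Eno1b UMIs together, Eno1 took 30.7% to 51.2% in the 11 control clusters and 14.8% to 33.8% in 11 of the 13 IL-12 clusters. The 2 exceptions were IL-12 cluster 8, at 69.2% (60.03 to 77.4), and IL-12 cluster 11, at 49.8% (45.6 to 54.1). Within the IL-12 library it was 14.8% (14.02 to 15.6) in cluster 5 and 30.1% (26.6 to 33.8) in cluster 9. For Pgk1 and Pgk1-rs7 the ranges were 25.5% to 47.5% in control and 11.7% to 32.2% in the same 11 IL-12 clusters, with clusters 8 and 11 again apart at 57.6% and 36.8%. Within clusters, the Eno1 share was lower in IL-12 in 9 of the 10 compared. Values of IL-12 cluster 8 in this text rest on 67 cells that stand apart in this respect.

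The log2 ratio also moved with transcript length over all genes. In all sorted cells the median of measured genes fell from 0.47 for the longest coding transcripts under 1000 bases to 0.34, 0.05, -0.28, -0.39 and -0.53 in the bins from 1000, 2000, 3000, 4000 and 6000 bases, and in CD8 T cells from 0.53 to -0.92. The members that stood above control are among the shorter (Aldoa 1549, Ldha 1815, Pkm 2432 bases) and those that stood lower among the longer (Vegfa 3451, Hif1a 4724, Hk2 5513, Epas1 5516 bases). Set against genes of like length, Hk2 remained at -1.10 and Vegfa at -1.04 in all sorted cells, and at -1.01 and -1.08 in macrophages. In CD8 T cells Epas1 was at -1.55, Vegfa at -1.06 and Pkm at 1.18, while Hk2 came to 0.08 and Hif1a to -0.01. Aldoa was at 0.36 in all sorted cells and 0.76 in CD8 T cells. Vegfa stayed below its length class in 10 of 10 clusters, Hk2 in 9, and Hif1a in 5; Aldoa, Pkm and Ldha stayed above theirs in 10 and Tpi1 in 9. After this centring 0 members were higher and 7 lower in all sorted cells, beside 12.3% and 13.6% of 5320 genes. In CD8 T cells 5 were higher and 4 lower, beside 13.5% and 12% of all genes so centred, and in CD4 T cells 1 and 6, beside 14.2% and 13.3%. In macrophages 0 were higher and 4 lower, beside 11.8% and 12%, and in neutrophils 5 and 3, beside 19.5% and 15.3%. Pgk1 and Eno1, taken in their own columns without copies, are among the lower in all of these populations except CD4 T cells. The part that length plays in the other ratios was not tested.

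**Figure D5:**
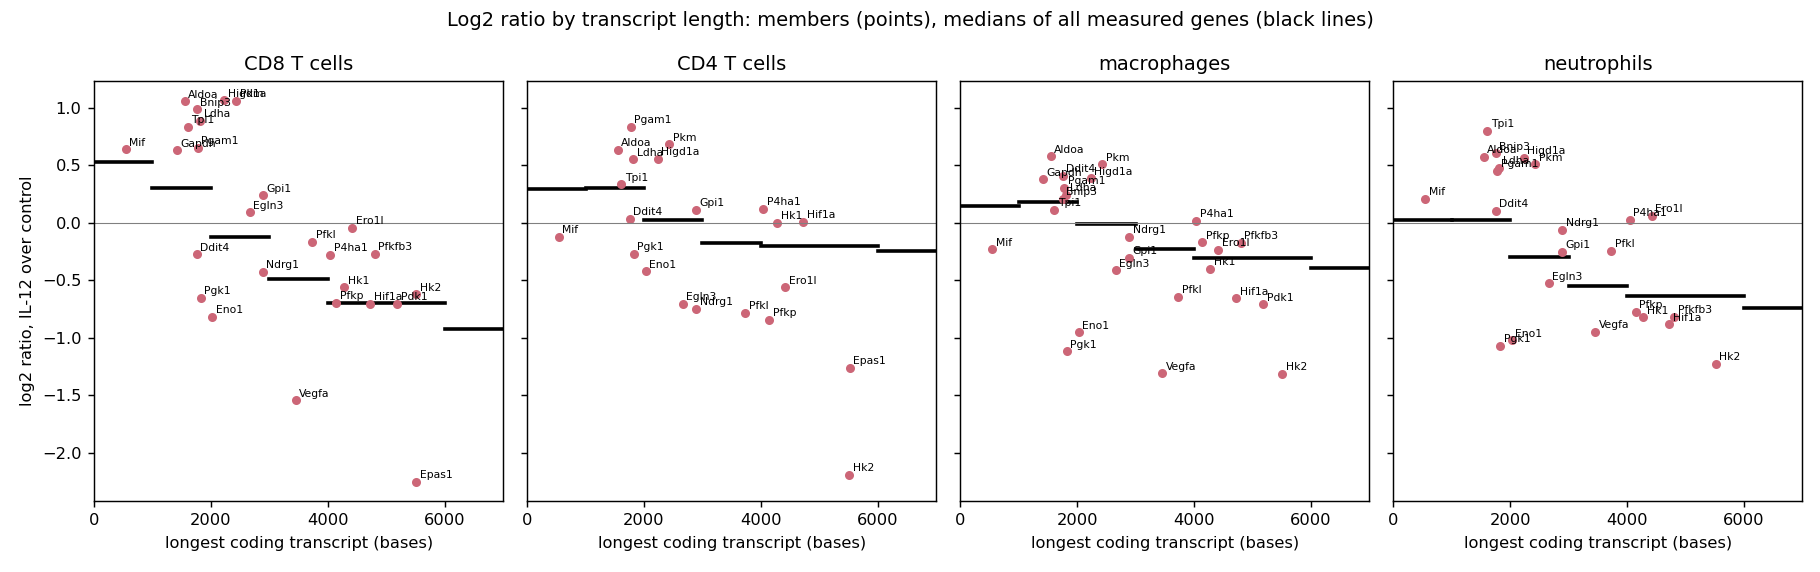
Log2 ratio of IL-12 over control (vertical axis) against the longest coding transcript in bases (horizontal axis) for measured members (points) in 4 classes, with black lines at the median of all measured genes per length bin (the last bin, from 6000 bases, is drawn to the edge). In each class the line of the longest bin lies below that of the shortest; Vegfa lies below its line in CD8 T cells, macrophages and neutrophils, Hk2 in all but CD8 T cells.

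Other genes of the pathways, from lists chosen with earlier results known, were compared in the same way. Of 32 further hypoxia genes in the tables, 21 were measured in all sorted cells, 1 higher and 7 lower, with a median of -0.41, beside 13.7% higher and 23.2% lower of all measured genes. Hmox1, haem oxygenase, was the 1 that was higher, at 222 and 482 CPM, and it stood at 244 and 838 CPM in neutrophils, 3.44-fold higher (3.28 to 3.60). Hilpda, a lipid droplet protein, was 1.97-fold higher (1.93 to 2.01) in neutrophils, at 1373 and 2705 CPM. Cluster 2 held 426 of 2721 control and 1912 of 5908 IL-12 neutrophils. Within cluster 2, 1 of 20 measured genes of this list was higher and 11 were lower, beside 8.53% and 38.8% of all genes measured there. The part of cluster mix in the neutrophil ratios of Hmox1 and Hilpda was not tested. Arnt, the partner subunit of HIF1A, stood at 43.0 and 20.6 CPM in all sorted cells, 2.09-fold lower. Egln1, the main HIF hydroxylase, was 2.67-fold lower in CD8 T cells, 2.08-fold in CD4 T cells and 2.17-fold in macrophages. Of 16 further glycolysis genes with a column, 6 were measured in all sorted cells, 0 higher and 3 lower beside the same shares, Adpgk, an ADP-dependent glucokinase, being 2.45-fold lower (2.20 to 2.71).

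A list of genes of pyruvate entry into mitochondria and of the tricarboxylic acid cycle had a median of 0.31 over 23 measured in all sorted cells. Of these, 6 were higher and 2 lower, beside 13.7% and 23.2% of all measured genes. The list also names the kinases Pdk2, Pdk3 and Pdk4, relatives of Pdk1, and the cytosolic enzyme Mdh1, so its median mixes different roles. Sdhb, a subunit of succinate dehydrogenase, stood at 55.9 and 104 CPM, 1.86-fold higher (1.74 to 1.99), and Mdh1, cytosolic malate dehydrogenase, was 1.85-fold higher (1.74 to 1.97). Dlst and Mpc1, parts of the oxoglutarate dehydrogenase complex and of the pyruvate carrier, were 1.68-fold and 1.74-fold lower. In CD8 T cells the same list had 2 higher and 2 lower of 23, beside 11.6% and 36.5% of all genes, and in CD4 T cells 6 and 2 of 21, beside 15.6% and 16.0%. In macrophages it had 1 and 3 of 23, beside 10.3% and 19.5%, and in neutrophils 0 and 1 of 8, beside 10.9% and 39.5%. The list's median was 0.20 in CD8 T cells, 0.04 in CD4 T cells, -0.10 in macrophages and -0.23 in neutrophils. Sdhb was 1.86-fold, 1.83-fold and 1.51-fold higher in CD8 T cells, CD4 T cells and macrophages, but level in neutrophils, at 33.4 and 33.8 CPM. The part of cell mix and transcript length in the ratios of all sorted cells was not tested. All 7 genes of the pentose phosphate pathway were measured and lay within 1.5-fold in all sorted cells, with a median of -0.11. Neither gluconeogenesis gene in the tables was measured there.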

How the data were processed

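Expression libraries of 1 control and 1 IL-12 pool were used; the receptor libraries were not, apart from the expansion column. Per the submitters' processing notes, reads were processed with Cell Ranger 2.1.0, STAR 2.6.1 and Partek on mm10; which tool did which step is not stated there. Deposited by the authors are log2 values per cell and gene, which the values show to be log2 of CPM plus 1, with cluster and class columns. UMIs were recovered by taking a cell's smallest value above 0 as 1 UMI; 6 of 4251108 control and 13 of 13883686 IL-12 values were not whole within 0.1. Totals of a cell include genes outside the table, which held 72.9% and 70.4% of UMIs. No cells were removed and doublets were not called. Fold intervals are exact conditional Poisson, share intervals Clopper-Pearson. Lengths and shared 60-base stretches come from GENCODE transcripts (GRCm38). Computation used Python 3.11.15, numpy 2.4.6, pandas 2.3.3 and scipy 1.17.1. Counts simulated for macrophages came from the Poisson model that the intervals assume, and 95.4% of 6324 intervals held the true fold. That checks the computation only, because spread between cells or mice beyond counting error was not simulated. Members and lists were chosen with earlier results of these data known. All members are named; other lists show up to 2 genes at each end of the log2 ratios.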

Additional observations from a re-analysis of the deposited data

Results flagged for a closer look

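Egln3 stood on opposite sides of control in a pair of populations: its log2 ratio was 0.94 in cluster 13, mostly B cells, and -0.70 in CD4 T cells, a difference of 1.64. The difference was not tested. Mast cell markers in cluster 13 summed to 69.8 CPM in control and 3668 CPM in IL-12, and dendritic markers to 968 and 1438 CPM; their part in it was not tested. It rests on 7 control and 44 IL-12 UMIs in cluster 13 and on 12 and 38 in CD4 T cells, and both intervals span equality (0.890 to 5.24 and 0.306 to 1.26).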

How the results depend on the processing

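Of 505 values of the 53 called ratios under alternative settings, 496 kept their direction and 437 stayed past 1.5-fold; 18 of the 53 did so in every setting run. The 9 that reversed were Pgk1 and Eno1 with their copies in all sorted cells (0.21 and 0.091), CD8 T cells (0.60 and 0.52) and neutrophils (0.10 and 0.055), Pgk1 in macrophages (0.054), and Hk2 and Pfkp in CD8 T cells against genes of like length (0.077 and 0.0049). Counts that differed by over 1.5 times were as follows. In all sorted cells, the 1 higher became 2 with CPM per UMIs of the table's genes, 2 centred on the median, 3 with class weights and 0 against like length. In CD8 T cells the 9 higher became 4 without members sharing over 10% of their stretches and 5 against like length, and the 8 lower became 5 with a pseudocount of 10 CPM, 2 centred and 4 against like length. In CD4 T cells the 3 higher became 1 without sharing members and 1 against like length. In macrophages the 0 higher became 1 with mean CPM per cell and 2 centred, and the 7 lower became 4 against like length. In neutrophils the 2 higher became 1 with mean CPM per cell, 8 centred, 1 without sharing members, 0 with cluster weights and 5 against like length, and the 8 lower became 3 centred, 5 with cluster weights and 3 against like length. Sums with copies and length centring were chosen after seeing the data; the cause of the other shifts was not tested. No paired analysis was possible because each treatment has 1 library. Members under the filter were not called in either direction.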
